A study of Rattus norvegicus with 6 samples.

Results

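Myc and the proteins that pair with it or oppose it form the Myc-Max-Mxd network. The 10 genes examined were Myc, Mycn, Mycl, Max, Mxd1, Mxd4, Mxi1, Mnt, Mlx and Mlxip, chosen by gene family and matched by name to the rows of a table of 32623 rat genes. All 10 were found, and all 10 were among the 13964 genes with a mean of at least 0.5 FPKM over the 6 samples, the genes that were tested. Mycl in sham and Mycn in ischemia had group means under 0.5 FPKM and passed through the other group. FPKM is the number of fragments scaled to gene length and to library size, so it allows levels of different genes to be compared.

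Myocardial tissue of male wild-type (WT) rats was sequenced as total RNA in 3 sham samples and 3 ischemia samples, all labelled 30 min. In the ischemia samples the left anterior descending (LAD) coronary artery had been tied. All rats were anesthetized, ventilated and opened by a left thoracotomy. Neither a ligation in the sham rats, nor the strain, the age, or whether each sample was a separate rat is given in the sources used here, so p-values measure the spread between these samples.

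Myc, Mycn and Mycl are basic helix-loop-helix leucine zipper transcription factors that bind DNA only as a pair with Max. The Myc-Max pair recruits histone acetyltransferases to E-boxes, short DNA motifs with the letters CACGTG, and raises transcription of genes for ribosome assembly, translation and nucleotide and amino acid metabolism. Mxd1, Mxd4, Mxi1 and Mnt compete for Max and for the same motif and recruit the Sin3-histone deacetylase corepressor. Mlx is a second hub related to Max, and with Mlxip (also called MondoA) it links transcription to glucose metabolites. Myc is kept low in the adult heart and is an early response gene, one that rises fast after stress and growth signals.

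The E-box was searched in RefSeq promoter windows of build GRCr8, each of 300 bases around a gene's start. CACGTG reads the same on both strands. It was found in 4 of the 8 members with a window (50%), against 2148 of 33469 promoters in all (6.42%). Myc and Mycn had no entry. These 4 sites are shown because they lie beside the partner, a pair of antagonists and the second hub of the network itself, in 30 bases along the gene's own strand with the motif in capitals.
Max: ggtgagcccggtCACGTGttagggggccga
Mlx: ggtggcttggatCACGTGactgagcctcgc
Mnt: ccccacccaagcCACGTGtgcgcgcgcgat
Mxd4: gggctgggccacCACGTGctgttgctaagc
The stretch of Max was chr6:101395306-101395335 on the minus strand, that of Mlx was chr10:86519804-86519833 on the plus strand, that of Mnt was chr10:60197824-60197853 on the plus strand and that of Mxd4 was chr14:80786572-80786601 on the plus strand. The first motif base was at position -33 of Max, -70 of Mlx, -123 of Mnt and -197 of Mxd4, counted from the gene start. The letters were not found in the windows of Mycl, Mxd1, Mxi1 and Mlxip. A match is a description of the sequence, and binding was not measured in the data analysed here.

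For Myc the study also listed designed oligonucleotides, shown because Myc was the member that they target.
Myc qRT-PCR forward primer: catcaagaggccacagcaaa
Myc qRT-PCR reverse primer: gcagctggatagtccttcct
Myc siRNA strand 1: gcgacgaggaagagaauuuTT
Myc siRNA strand 2: aaauucucuuccucgucgcTT
The capitals mark the 3′ TT overhangs of the small interfering RNA. Its 19 core bases paired at 19 positions. Where these oligonucleotides lie in the transcript was not determined here.

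The 6 libraries held 68529126 to 79591989 counts in 17076 to 18096 genes with counts. Neutrophil and macrophage genes differed widely between the samples. The summed FPKM of 10 neutrophil markers was 9.13 to 19.6 in sham against 520.3, 4009 and 529.9 in ischemia replicates 1, 2 and 3. Single markers ran from Itgam with a log2 fold change of 4.03 to Retnlg with 0 counts in every sham sample and 434, 765 and 336 counts in ischemia. Of these 10 markers, 7 had a sham mean under 0.5 FPKM and passed the filter only through ischemia, where they were high, so their count past the test is no support. Ischemia replicate 2 stood apart with the highest neutrophil and macrophage sums and the lowest cardiomyocyte sum, 11913 FPKM over 8 markers against 21863 to 42131 in the other 5 samples. Sham replicate 2 stood apart with 215.5 FPKM over 5 atrial markers, against 39345 and 48344 in the other sham samples. Ischemia replicate 1 held 410.6 FPKM of lung epithelium markers, against at most 15.1 elsewhere. In tissue RNA, fewer cells of a type and less RNA per cell cannot be told apart.

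Across all tested genes, edgeR's quasi-likelihood test with Benjamini-Hochberg adjustment put 5.18% past an adjusted p of 0.05 as higher in ischemia and 1.53% as lower. DESeq2, an alternative test on the same counts, put 14.8% as higher and 12.5% as lower, and at an unadjusted p under 0.05 edgeR had 18.2% higher and 14.2% lower. Of the 10 members, 1 rose (Myc) and 1 fell (Mycn) in edgeR, and 4 were higher and 1 lower in DESeq2. Mycl, among those higher in DESeq2, and Mycn, lower in both tests, passed the filter only through the group where they were high. Their calls are therefore no support. The median log2 fold change was 0.34 over the members and -0.00147 over all tested genes. Counting overlap instead of calls, 5 members lay above sham in every ischemia sample (Myc, Mycl, Max, Mxd1 and Mlx), against 22% of all tested genes, and 1 lay below (Mycn), against 19.1%. For Mycl and Mycn the lack of overlap is no support either, for the same reason.

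**Figure D1:**
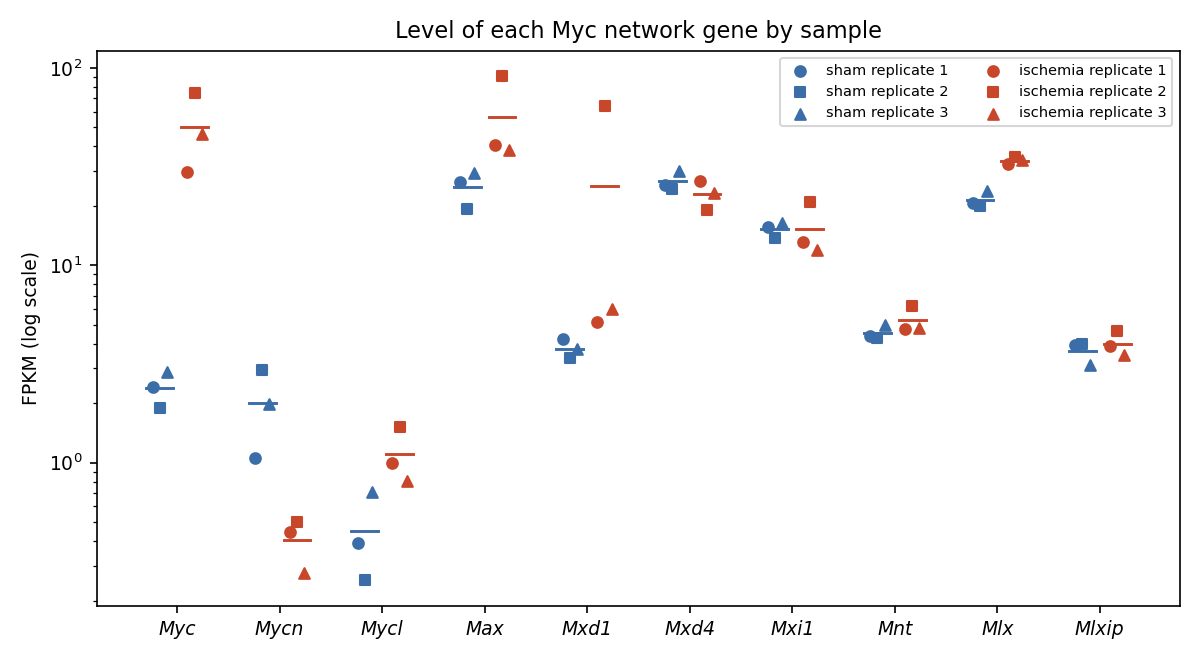
FPKM on a log axis of the 10 members in each sample, with circles, squares and triangles for replicates 1, 2 and 3, blue for sham, red for ischemia, and a bar at each group's mean. Myc sits at 1.89 to 2.87 in sham against 29.8 to 74.6 in ischemia, Mycn moves the other way, and Mxd1 is high in ischemia replicate 2 alone.

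In sham myocardium Mxd4, Max, Mlx and Mxi1 were far more abundant than the Myc genes. Mxd4 had a mean of 26.6 ± 2.92 FPKM (SD, n = 3), Max 25.0 ± 5.15, Mlx 21.5 ± 2.13 and Mxi1 15.3 ± 1.41. Mnt followed at 4.55 ± 0.397, Mxd1 at 3.78 ± 0.437, Mlxip at 3.69 ± 0.489, Myc at 2.39 ± 0.491, Mycn at 1.995 ± 0.947 and Mycl at 0.451 ± 0.235. The sample ranges overlapped between the neighbours Mxd4 and Max, Max and Mlx, Mxd1 and Mlxip, and Myc and Mycn. In ischemia the order was Max (56.5 ± 29.7), Myc (50.2 ± 22.6), Mlx (33.8 ± 1.36), Mxd1 (25.1 ± 33.7), Mxd4 (23.1 ± 3.88), Mxi1 (15.3 ± 4.97), Mnt (5.26 ± 0.846), Mlxip (4.002 ± 0.572), Mycl (1.11 ± 0.373) and Mycn (0.406 ± 0.116). There each neighbour from Max down to Mxi1 overlapped with the next, and from Mxi1 down none did.

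Myc was the member that changed most. Its level was 2.43, 1.89 and 2.87 FPKM in sham replicates 1, 2 and 3 and 29.8, 74.6 and 46.3 FPKM in ischemia replicates 1, 2 and 3. In raw counts it held 500, 413 and 562 in sham against 6608, 15046 and 8841 in ischemia. The groups lay far apart, with the lowest ischemia sample more than 10 times the highest sham sample. This was a log2 fold change of 4.29 ± 0.35 (SE), a 19.6-fold difference (edgeR adjusted p 0.0246). Among the 13964 tested genes Myc ranked 158 by log2 fold change and 5 by p. An exact permutation test of FPKM gave p = 0.1, the smallest that 3 samples against 3 allow. Myc is among the MAPK pathway genes that the study picked for their rise in these samples, so its rise is not independent evidence. The call was lost without sham replicate 1, 2 or 3 or ischemia replicate 3 (log2 fold change 4.26, 4.23, 4.38 and 4.30, edgeR adjusted p 0.157, 0.0819, 0.125 and 0.101). In each of these 4 fits, 0 of all tested genes were called by edgeR, while 3020 to 3809 had an unadjusted p under 0.05, so that limit is shared by every edgeR call given here. With the neutrophil and macrophage score as a covariate the log2 fold change of Myc was 2.35 (edgeR adjusted p 0.608). That score had a correlation of 0.951 with the group over the 6 samples, so the share of the difference that moves with these cells and the share that does not cannot be told apart. In the file's own coordinates, whose build is not given in the sources used here, Myc (ENSRNOG00000004500) spans positions 102586313 to 102591240 of chromosome 7 on the plus strand.

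Mycn, the family member known from embryonic heart and neural tissue, went the other way. It was at 1.05, 2.95 and 1.99 FPKM in the sham samples and at 0.444, 0.498 and 0.275 FPKM in the ischemia samples. Every ischemia sample was below every sham sample, and sham replicate 2, the sample with few atrial transcripts, was the highest. In raw counts it held 210, 624 and 376 against 96, 98 and 51. Mycn fell, with a log2 fold change of -2.45 ± 0.53 (95% interval -3.74 to -1.17) and 5.47-fold more in sham, just past the threshold (edgeR adjusted p 0.0490). It ranged from -2.79 to -1.90 when 1 sample was left out. The call was kept without ischemia replicate 1 alone (edgeR adjusted p 0.0497) and was lost without sham replicate 1, 2 or 3 (0.157, 0.0972 and 0.140) or ischemia replicate 2 or 3 (0.0829 and 0.158). It was also lost in limma on log2(FPKM + 0.1) and on log2(FPKM + 1) (log2 fold change -1.97 and -1.04, limma adjusted p 0.0542 and 0.0651) and in limma after quantile normalization (0.0642), and in edgeR with total-count scaling (0.0542) or no expression filter (0.0603). DESeq2 called it (DESeq2 adjusted p 0.00016). Its ischemia mean of 0.406 FPKM was under 0.5, and it passed the filter only through sham, where it was high. Its calls are therefore no support. Mycn (ENSRNOG00000051372) lies on chromosome 6, positions 38222555 to 38228379 on the minus strand, in the file's coordinates.

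Mycl, a family member first found amplified in lung cancer, was the lowest of the 10 in sham. It was at 0.390, 0.253 and 0.711 FPKM in sham against 0.9904, 1.52 and 0.803 FPKM in ischemia. The ischemia samples were all higher, by a narrow margin between sham replicate 3 and ischemia replicate 3. Its log2 fold change of 1.22 ± 0.44 did not pass in edgeR (edgeR adjusted p 0.119), and DESeq2 called it (DESeq2 adjusted p 0.0424). Its sham mean of 0.451 FPKM was under 0.5, and it passed the filter only through ischemia, so that call is no support.

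The make-up of the Myc family was unlike in the groups, and as a ratio of levels it was not tested. Myc made up 62.7%, 37.1% and 51.5% of the summed FPKM of Myc, Mycn and Mycl in the sham samples and 95.4%, 97.4% and 97.7% in the ischemia samples. Mycn made up 27.2%, 57.9% and 35.7% in sham against 1.42%, 0.651% and 0.581% in ischemia. In sham replicate 2 Mycn was the most abundant of the 3 genes, and in every other sample Myc was. The family sum itself was 3.87 to 5.56 FPKM in sham against 31.2 to 76.6 FPKM in ischemia.

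Max, the obligatory partner, was at 26.5, 19.2 and 29.1 FPKM in sham against 40.5, 90.9 and 38.3 FPKM in ischemia. The groups did not overlap, and ischemia replicate 2 was more than 2 times the other ischemia samples. Its log2 fold change was 1.08 ± 0.33 (edgeR adjusted p 0.0867), and without ischemia replicate 2 it was 0.63. DESeq2 called Max. The ratio of Myc to Max in FPKM was 0.0915, 0.0983 and 0.0984 in sham against 0.735, 0.820 and 1.21 in ischemia. Max was thus about 10 times as abundant as Myc in every sham sample (10.2 to 10.9), and in ischemia replicate 3 Myc exceeded Max.

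**Figure D2:**
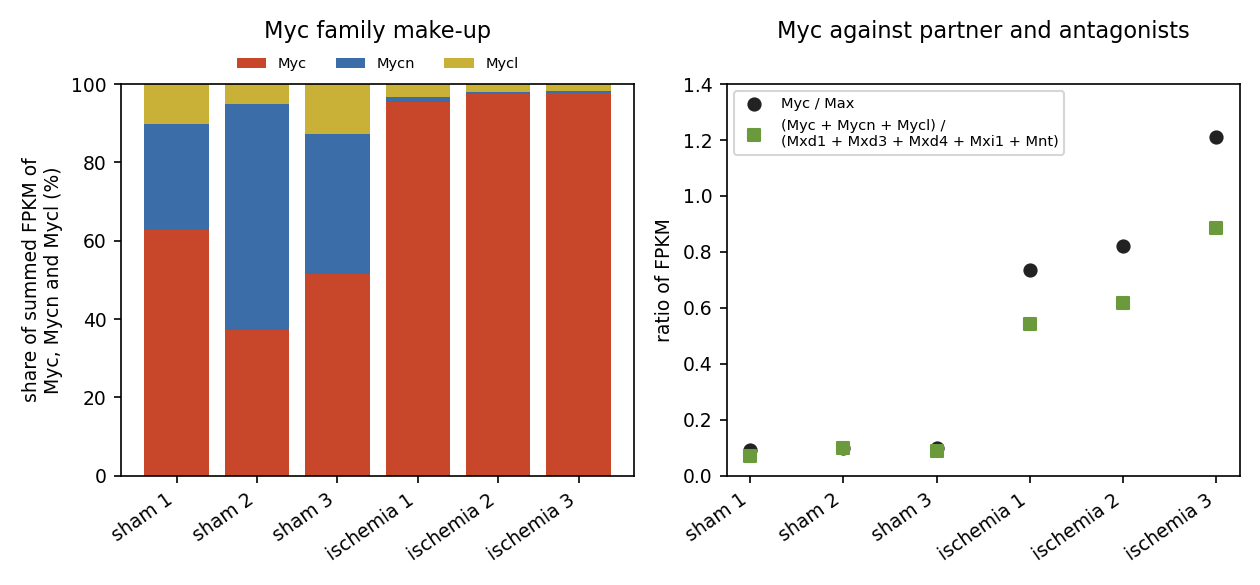
Left, the share in percent of the summed FPKM of Myc, Mycn and Mycl held by each gene in each sample. Right, the ratio of Myc to Max (circles) and of the 3 Myc genes to the 5 antagonists Mxd1, Mxd3, Mxd4, Mxi1 and Mnt (squares), which is at most 0.0992 in sham and at least 0.542 in ischemia.

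Of the 4 Max-binding antagonists among the members, 0 passed in edgeR, beside 5.18% higher and 1.53% lower of all tested genes. Mxd1 alone had an unadjusted p under 0.05 in edgeR (18.2% higher and 14.2% lower of all). DESeq2 called 0 of the other 3 (14.8% higher and 12.5% lower of all) and gave no p for Mxd1. Mxd1, which is induced when myeloid cells mature, was at 4.24, 3.37 and 3.74 FPKM in sham against 5.18, 64.0 and 6.00 FPKM in ischemia. All 3 ischemia samples were above sham, yet ischemia replicate 2 alone was more than 10 times the others, the same sample with 4009 FPKM of neutrophil markers. The log2 fold change of 2.56 ± 0.97 did not pass (edgeR adjusted p 0.132), and without ischemia replicate 2 it was 0.53 (0.151). What part neutrophil RNA had in the Mxd1 level was not tested.

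Mxd4, the most abundant antagonist in sham, was at 25.6, 24.4 and 29.9 FPKM there against 26.8, 19.1 and 23.3 FPKM in ischemia. The groups overlapped, and the log2 fold change was -0.28 with a 95% interval of -0.79 to 0.22 (edgeR adjusted p 0.372). Mxi1, a related repressor, was at 15.7, 13.7 and 16.4 FPKM in sham against 13.1, 21.0 and 11.9 FPKM in ischemia. Its groups overlapped as well, with ischemia replicate 2 the highest sample and the other 2 ischemia samples the lowest. Its log2 fold change was -0.10, with an interval of -0.61 to 0.41 (edgeR adjusted p 0.766). Mnt, the ubiquitous antagonist, was at 4.39, 4.26 and 5.003 FPKM in sham against 4.75, 6.24 and 4.80 FPKM in ischemia, again with overlap (log2 fold change 0.11, interval -0.31 to 0.53, edgeR adjusted p 0.675). For these 3 genes the intervals left room for changes of up to 0.79 on the log2 scale in one direction or the other.

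Of the network genes outside the 10, Mxd3, an antagonist linked to S phase, was at 5.56 to 7.01 FPKM in sham against 7.46 to 13.9 FPKM in ischemia (log2 fold change 0.56, edgeR adjusted p 0.167). Mxd3 overlaps Prelid1 on the other strand over 3056 bases, and whether strand was used in counting is not given, so its value is uncertain. Mga, a large Max-binding repressor, had a log2 fold change of 0.12 (edgeR adjusted p 0.876). Mlxipl was not analysed here.

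Summed over Mxd1, Mxd3, Mxd4, Mxi1 and Mnt, the antagonists stood at 55.7, 51.3 and 62.1 FPKM in sham against 57.6, 124.3 and 53.4 FPKM in ischemia. Without Mxd1 the sums were 51.4, 47.9 and 58.4 against 52.4, 60.3 and 47.4 FPKM, and the groups overlapped. The antagonist sum was 10.1 to 14.4 times the Myc family sum in the sham samples and 1.13 to 1.84 times that sum in the ischemia samples. Mxd1 made up 6.03% to 7.62% of the antagonist sum in sham against 8.99%, 51.5% and 11.2% in ischemia replicates 1, 2 and 3.

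The second hub did not pass either. Mlx was at 20.6, 19.9 and 23.9 FPKM in sham against 32.4, 35.1 and 33.96 FPKM in ischemia. The ischemia samples lay close together and all above sham. The log2 fold change of 0.57 ± 0.15 (95% interval 0.20 to 0.94) had an edgeR adjusted p of 0.0689, and DESeq2 called it. Mlx shares 37 bases with Psmc3ip on the other strand. Its partner Mlxip was at 3.95, 3.99 and 3.12 FPKM in sham against 3.89, 4.62 and 3.50 FPKM in ischemia, with a log2 fold change of 0.01 and an interval of -0.54 to 0.55 (edgeR adjusted p 0.989). Their joint targets Txnip, an inhibitor of glucose uptake, and the related Arrdc4 had log2 fold changes of 0.82 and -0.11 (edgeR adjusted p 0.169 and 0.843). In edgeR, in DESeq2 and at an unadjusted p under 0.05 in edgeR, 0 of 2 passed. Of all tested genes 5.18%, 14.8% and 18.2% were higher in that order, and 1.53%, 12.5% and 14.2% lower.

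**Figure D3:**
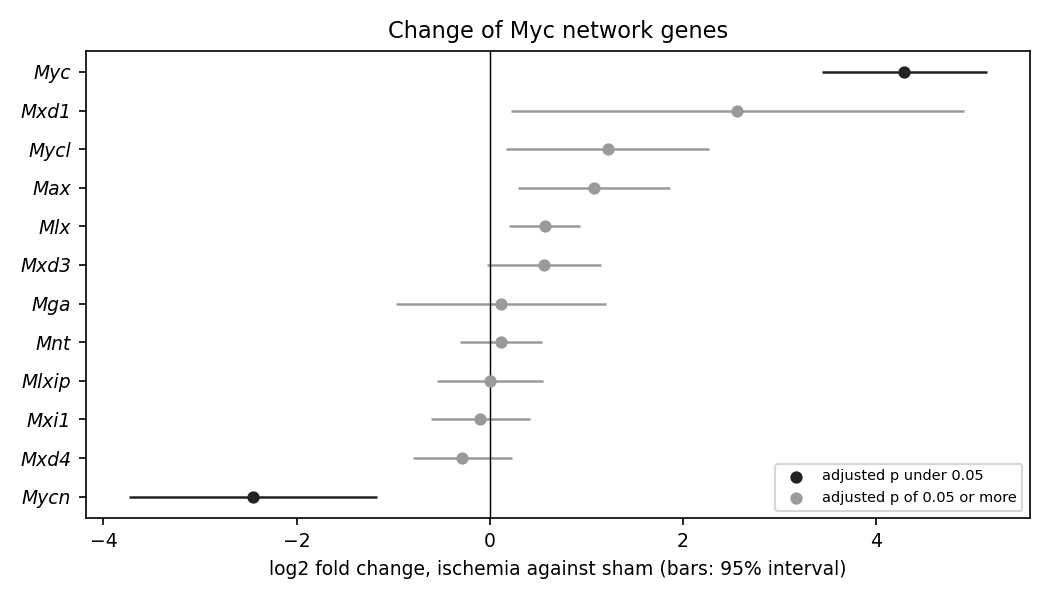
Log2 fold change of ischemia against sham with its 95% interval for the 10 members and for Mxd3 and Mga, in black where the edgeR adjusted p was under 0.05. Myc at 4.29 and Mycn at -2.45 are the 2 black points, and the interval of Mxd1 is the widest.

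In a list of 34 Myc-activated genes, all of them tested, 17 rose and 0 fell in the edgeR test (5.18% and 1.53% of all tested genes). At an unadjusted p under 0.05, 24 were higher and 1 lower (18.2% and 14.2% of all tested genes). DESeq2 called 24 higher and 1 lower (14.8% and 12.5%). The median log2 fold change was 1.28, and 28 of the 34 lay above sham without overlap while 2 lay below (22% and 19.1% of all tested genes). The count of 17 fell to 13 without ischemia replicate 2, rose to 23 without ischemia replicate 1, and was 0 without sham replicate 1, 2 or 3 or ischemia replicate 3, the 4 fits in which no gene of the whole table was called, with medians of 1.15 to 1.44 in these 6 fits. With the neutrophil and macrophage score as a covariate, 21 of 34 log2 fold changes were positive and the median was 0.52. The correlation of 0.951 between that score and the group limits this fit as well.

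Slc7a5, a transporter of large neutral amino acids, led the list. It was at 3.41, 2.52 and 3.26 FPKM in sham against 35.1, 43.7 and 26.8 FPKM in ischemia, with no overlap, and its log2 fold change was 3.43 ± 0.20 (edgeR adjusted p 0.0110). Genes of ribosome assembly followed. Rrp12, needed for export of ribosomal subunits, rose and was at 2.70 to 3.62 FPKM in the sham samples and 19.2 to 34.9 FPKM in the ischemia samples (log2 fold change 3.11 ± 0.29, edgeR adjusted p 0.0246). Fbl, the methyltransferase of ribosomal RNA, was at 23.7, 18.7 and 24.9 FPKM in sham against 69.9, 110.5 and 86.5 FPKM in ischemia (1.90 ± 0.19, edgeR adjusted p 0.0246). Bop1 and Mrto4, factors of the large ribosomal subunit, had log2 fold changes of 1.96 and 1.74, and the translation helicase Eif4a1 had 1.93 (edgeR adjusted p 0.0248, 0.0272 and 0.0272). In all of these the groups stood apart.

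The following genes of the list were named after their values were seen. Npm1, a nucleolar histone chaperone, rose with a log2 fold change of 2.03 (edgeR adjusted p 0.0372), and Srm, which makes spermidine, with 1.87 (0.0413), a value that is uncertain because the chromosome of its row is not that of the RefSeq gene. Ncl and Odc1, classical Myc targets in the nucleolus and in polyamine synthesis, were at 1.83 and 1.19 and did not pass (edgeR adjusted p 0.0510 and 0.0900). Ldha, the lactate dehydrogenase subunit, was at 0.48 (0.215). The 2 genes below sham were Tfrc, the transferrin receptor, at -0.97 (0.105), and Ccnd2, a cyclin of the first growth phase, at -0.40 (0.200), and neither passed in edgeR. DESeq2 called Tfrc lower (DESeq2 adjusted p 0.0299). Without ischemia replicate 2, Srm no longer passed (edgeR adjusted p 0.0681) and Tfrc passed as lower (-1.37, 0.0421), and without ischemia replicate 1, Ncl (0.0283) and Odc1 (0.0264) passed. Of 19 alternative fits, that one included, Ncl passed as higher in 3 and Odc1 in 2.

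**Figure D4:**
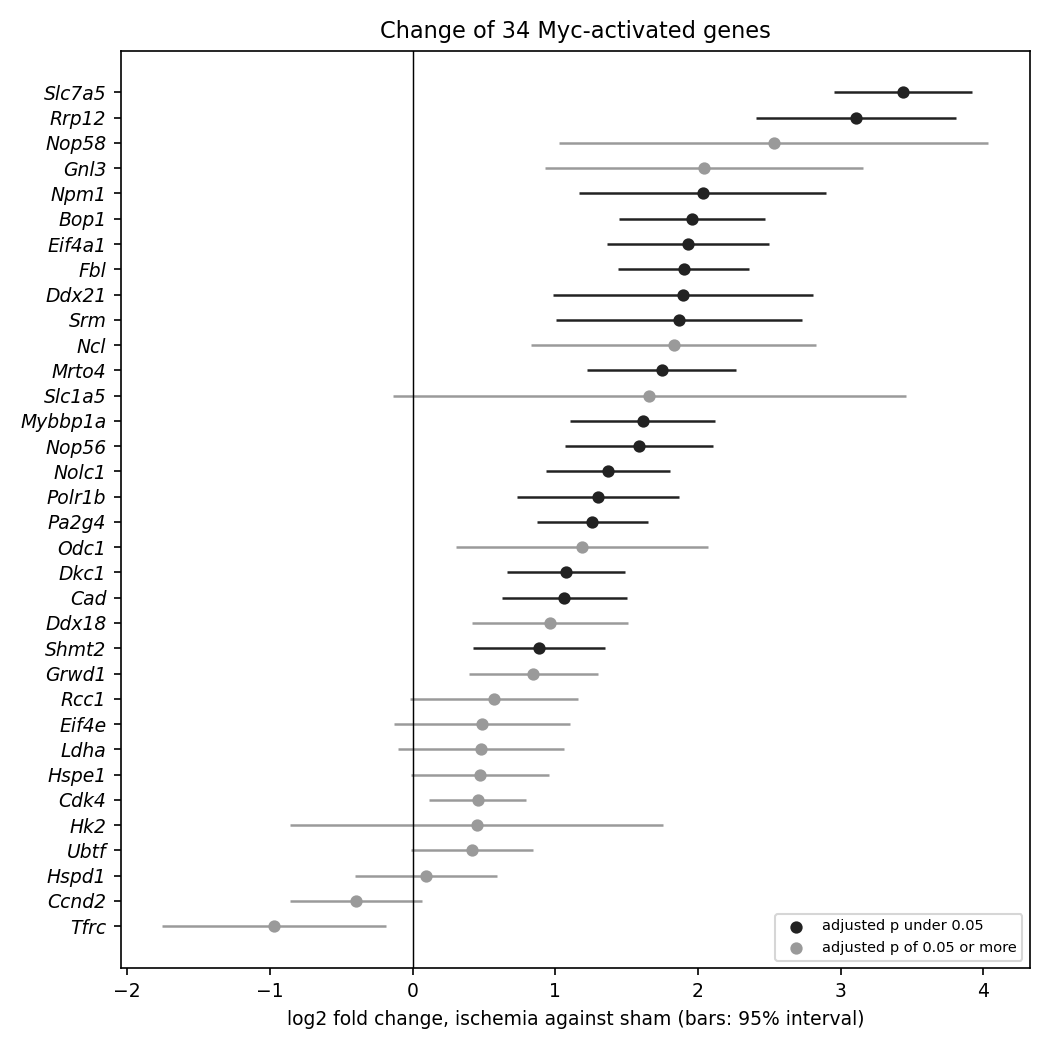
Log2 fold change of ischemia against sham with its 95% interval for each of the 34 Myc-activated genes, in black where the edgeR adjusted p was under 0.05. Points run from -0.97 (Tfrc) to 3.43 (Slc7a5), and 32 of 34 are above 0.

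The E-box letters stood in 10 of the 30 list genes with a promoter window (33.3%, against 6.42% of all windows). The share was 5 of 15 (33.3%) among genes past the edgeR threshold and 5 of 15 (33.3%) among the others. Srm was left out because its row in the table lies on chromosome 3 and the RefSeq window on chromosome 5. Those of the genes named first are shown because these genes had the smallest p-values of the list.
Slc7a5: catcatacgctcCACGTGcttcaacagacc
Rrp12: gctgagaatacaCACGTGggttctgctgtg
Fbl: ggcgcttttttcCACGTGtgaaagcctgag
They lie at chr19:66872574-66872603 on the minus strand, chr1:250655298-250655327 on the minus strand and chr1:92597416-92597445 on the plus strand of GRCr8. The first motif base was at position -179 of Slc7a5, 4 of Rrp12 and 22 of Fbl. Eif4a1 and Mrto4 had a window without these letters, and Bop1 had no entry.

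Of genes that Myc is known to repress, 5 of a list of 6 were tested, 2 rose and 0 fell in edgeR and in DESeq2, beside 5.18% and 1.53% of all tested genes in edgeR and 14.8% and 12.5% in DESeq2. At an unadjusted p under 0.05 in edgeR 3 were higher and 0 lower (18.2% and 14.2% of all). Cdkn1a, a cell cycle inhibitor also induced by p53, was at 16.9, 33.0 and 16.7 FPKM in sham against 78.6, 123.5 and 113.3 FPKM in ischemia (log2 fold change 2.09 ± 0.43, edgeR adjusted p 0.0445). Gadd45a, a gene of the response to DNA damage, was at 12.1, 16.1 and 17.2 FPKM in sham against 39.9, 147.1 and 85.1 FPKM in ischemia (2.46 ± 0.47, edgeR adjusted p 0.0406). Both groups of samples stood apart in each. Ndrg1, a hypoxia-induced gene named after its values were seen, had 107.7 FPKM in ischemia replicate 2 and 20.3 to 20.4 in the other ischemia samples (1.60, edgeR adjusted p 0.149). Ndrg2 and Cdkn1b, also named after their values were seen, were at -0.99 and -0.29, with overlap (edgeR adjusted p 0.248 and 0.316). Without ischemia replicate 2, Cdkn1a and Gadd45a were at 2.01 and 2.001 and no longer passed (edgeR adjusted p 0.0746 and 0.0560). With the neutrophil and macrophage score as a covariate the direction of Gadd45a turned (-0.55, edgeR adjusted p 0.855). As that score had a correlation of 0.951 with the group, this fit cannot tell the 2 apart.

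Of 11 tested cofactors 1 rose in edgeR and 5 in DESeq2, beside 5.18% and 14.8% of all tested genes. The edgeR call was Cdk9, the kinase that releases paused RNA polymerase, at 17.4 to 27.5 FPKM in the sham samples and 40.6 to 50.8 FPKM in the ischemia samples (log2 fold change 0.87 ± 0.16, edgeR adjusted p 0.0387). Without ischemia replicate 2 it was 0.81 (0.0601). The cofactor median was 0.24, and Trrap, the scaffold of acetyltransferase complexes, named after its value was seen, was at -0.40 (edgeR adjusted p 0.141). Of the 7 genes of the Sin3-deacetylase and NCoR corepressors, 0 passed in edgeR, beside 5.18% higher and 1.53% lower of all tested genes. DESeq2 called 1 higher and 0 lower (14.8% and 12.5% of all). At an unadjusted p under 0.05 in edgeR, 1 was higher and 0 lower (18.2% and 14.2% of all). The corepressor median was 0.22. The largest differences there were in the deacetylase Hdac1 (0.68, edgeR adjusted p 0.107) and in Sap30 (0.58, edgeR adjusted p 0.159).

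Among 11 tested genes that act on Myc protein stability, 1 fell and 0 rose in edgeR (1.53% and 5.18% of all tested genes). DESeq2 called 1 lower and 1 higher (12.5% and 14.8%), limma on log2(FPKM + 0.1) called 0, and 1 was lower and 2 higher at an unadjusted p under 0.05 in edgeR (14.2% and 18.2%). Fbxw7, the substrate receptor of a ubiquitin ligase that marks Myc for destruction, was at 7.96, 4.95 and 4.95 FPKM in sham against 2.85, 3.23 and 1.94 FPKM in ischemia. Every ischemia sample lay below sham, and the log2 fold change was -1.25 ± 0.27 (edgeR adjusted p 0.0485). Without ischemia replicate 2 it was -1.35 and did not pass (edgeR adjusted p 0.0691). Skp2, another ubiquitin ligase receptor for Myc, named after its value was seen, was at 1.10 (edgeR adjusted p 0.113) and was the gene DESeq2 called higher (DESeq2 adjusted p 0.0371). Its sham mean of 0.329 FPKM was under 0.5, and it passed the filter only through ischemia, so its DESeq2 call is no support. The median of these genes was 0.05. Protein levels were not measured in the data analysed here.

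Proliferation genes were near the detection filter in every sample. The sum of Mki67, Top2a, Ccnb1, Cdk1, Bub1 and Aurkb was 2.53 to 4.36 FPKM in sham against 2.50 to 5.42 FPKM in ischemia. Only Ccnb1 and Cdk1 passed the filter, and their log2 fold changes were -0.22 and 0.05 (edgeR adjusted p 0.728 and 0.936).

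The genes whose pattern over the 6 samples was most like that of Myc were Fbl, Qtrt1, LOC103692785, Eif4a1 and Pno1, with Pearson's r of 0.9997, 0.999, 0.998, 0.998 and 0.998 on a log2 CPM scale. Qtrt1, a transfer RNA modification enzyme, and Pno1, a factor of the small ribosomal subunit, rose (log2 fold change 2.02 and 1.68, edgeR adjusted p 0.0272 for each), while LOC103692785 was at 0.69 (0.184). The 6 points share the group difference, and on this CPM scale 91 genes had an r above 0.99. On log2(FPKM + 0.1), a scale added after the data were seen, the 5 genes ranked 9, 4, 284, 15 and 27 of 13963. Among the members, r with Myc was 0.94 for Mlx, 0.88 for Max and Mycl, 0.69 for Mxd1, 0.54 for Mnt, 0.06 for Mlxip, -0.18 for Mxi1, -0.70 for Mxd4 and -0.89 for Mycn.

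The markers of the cell types in the tissue were compared in the same way. Of 9 monocyte and macrophage markers, 4 rose and 0 fell in edgeR (from Adgre1 at -1.13 to Lyz2 at 4.09), beside 5.18% and 1.53% of all tested genes. DESeq2 called 6 higher and 1 lower (14.8% and 12.5% of all), and their sum was 229.2 to 381.5 FPKM in sham against 951.9, 5155 and 1719 FPKM in ischemia, of which Lyz2 alone held 746.1, 4747 and 1477 FPKM. At an unadjusted p under 0.05, 6 of the 9 were higher and 2 lower (18.2% and 14.2% of all), the 2 being Adgre1 and C1qa (log2 fold change -1.13 and -0.66), and C1qa was below sham in every ischemia sample. Of the 8 cardiomyocyte markers (Myh6 at -2.38 to Myl3 at 0.20), the 5 atrial (Bmp10 at -7.50 to Nppa at -2.42), the 5 endothelial (Cdh5 at -0.21 to Egfl7 at 0.64), the 5 fibroblast (Lum at -2.70 to Tcf21 at -0.47) and the 4 mural markers (Myh11 at -2.15 to Pdgfrb at -0.29), 0 passed in edgeR. At an unadjusted p under 0.05, in that order, 3, 1, 0, 2 and 1 were lower and 0, 0, 1, 0 and 0 higher, and DESeq2 called 3, 0, 0, 2 and 1 lower. The atrial gene in that count was Bmp10, which had an ischemia mean of 0.256 FPKM and passed the filter only through sham, where replicates 1, 2 and 3 held 3.003, 0.645 and 142.1 FPKM. Of 5 tested lymphocyte markers (Nkg7 at 0.13 to Cd8a at 2.17), Cd8a rose. The 3 tested lung epithelium markers did not pass, from Scgb1a1 at 4.70 to Sftpa1, which had 0 counts in every sham sample and 1303, 8 and 0 counts in ischemia replicates 1, 2 and 3. Listed at the table's floor in at least 1 sample were Retnlg and Mmp9 of the neutrophil list, Ms4a1 of the lymphocyte list and all 4 lung genes. Myc itself was more than 10 times sham in ischemia replicates 1 and 3. The neutrophil sums of these samples were 520.3 and 529.9 FPKM, which were also high against the 9.13 to 19.6 FPKM of sham. Without ischemia replicate 2 the log2 fold change of Myc was 3.96 (edgeR adjusted p 0.0186). The part that each of these cell types had in the level of Myc was not tested.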

How the data were processed

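Per the labels, total RNA was extracted with Trizol and libraries were made with a strand-aware total RNA kit. The submitters' processing notes name STAR and HTSeq, and their versions, the strand setting and the genome build are not given in the sources used here. The authors deposited raw counts, whole numbers without normalization, and FPKM, scaled by gene length and library size with genes without reads set to 0.0001. The 13964 of 32623 genes whose FPKM averaged 0.5 or more were tested on the counts with edgeR 4.0.16 in R 4.3.3 (quasi-likelihood test, TMM scaling, Benjamini-Hochberg adjustment over all tested genes, adjusted p under 0.05). Overlap of groups was counted on TMM-scaled CPM, and exact permutation tests were two-sided. limma 3.58.1 and DESeq2 1.42.0 served in the alternatives, and the edgeR steps were tested on simulated data. A count of 3 corresponded to 0.0377 to 0.0438 CPM, which covers counting error only.

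The members, the gene lists and the tests were chosen with earlier results of these data known. The lists were Myc-activated, Myc-repressed and Mlx-Mlxip target genes, cofactors, corepressors, turnover and proliferation genes, and markers of cell types. Named were all members, Mxd3 and Mga, up to 6 genes per list past the threshold with the smallest p (if none, the 2 with the largest change), the extremes of each marker list, and the 5 genes most like Myc. Odc1, Npm1, Ncl, Srm, Tfrc, Ccnd2, Ldha, Skp2, Trrap, Ndrg1, Ndrg2 and Cdkn1b were added after their values were seen. Ratios between members used FPKM. Mlxipl, Ccr2, Pecam1 and Col1a2 and the protein sequences were not analysed here. Promoter windows (250 bases before to 50 after the start) came from RefSeq, build GRCr8, and primers and siRNA from the study's supplement.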

Additional observations from a re-analysis of the deposited data

How the results depend on the processing

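Having 3 samples in each group limits every call. The count of members past the threshold was 4 higher with DESeq2 (Max, Mlx, Mycl and Myc). It was 0 higher with the replicate block, the myeloid covariate and the atrial covariate, and 0 lower with both limma fits, total-count scaling, quantile normalization, no expression filter, the replicate block and both covariates. It was also 0 lower at a mean FPKM of at least 5, a filter that removed Mycn. The companion lists held 33 genes higher and 2 lower with DESeq2, 0 higher with the block or a covariate, and 0 lower with those 3, both limma fits, total-count scaling, no filter and the filter at 5, which removed Fbxw7. Myc-activated genes past the threshold were 0 with the block or a covariate, and so was the count over all 13964 genes in edgeR (3349, 1006 and 2461 at an unadjusted p under 0.05 with the block, the myeloid and the atrial covariate). The log2 fold change of Myc was 4.21 with the replicate block, 2.35 with the myeloid and 4.08 with the atrial covariate (edgeR adjusted p 0.0943, 0.608 and 0.158), and 3.96 to 4.54 when 1 sample was left out. Leaving out 1 sample gave 0 to 1 members higher, 0 to 1 lower, 0 to 30 companion genes higher, 0 to 1 lower and 0 to 23 Myc-activated genes higher. Same-numbered samples had correlations of -0.056, -0.094 and -0.196 after each group's mean was removed, so no pairing by number was seen. These few values cannot exclude a pairing. With the myeloid covariate the sign reversed for Max (-1.02), Mxd1 (-4.98), Mxd4 (0.70), Mnt (-0.48), Mlxip (-0.37), Mxd3 (-0.98), Mga (-1.999), Gadd45a (-0.55), Hdac1 (-0.36), Cdk1 (-0.77), Odc1 (-1.31), Ncl (-0.028), Ldha (-0.29), Trrap (0.21) and Ndrg1 (-3.29). That covariate had a correlation of 0.951 with the group. Values near 0 reversed elsewhere: Mxi1 (total-count scaling 0.0086, without ischemia replicate 3 0.019), Mlxip (DESeq2 -0.025, median-ratio -0.025, upper-quartile -0.023, no mitochondrial genes -0.00084, atrial covariate -0.18), Arrdc4 (limma 0.00077 and 0.0032, total-count 0.038), Cdk1 (atrial covariate -0.25). With 1 sample left out, Mlxip ran from -0.15 to 0.18, Mga from -0.40 to 0.44, Arrdc4 from -0.42 to 0.22, Cdk1 from -0.15 to 0.26 and Mxi1 from -0.33 to 0.019. The cause was not tested. Every scaling moved the median of all genes by under 0.1.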
